A study of Mus musculus with 14 samples.

Results

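Complex I, the NADH:ubiquinone oxidoreductase of the inner mitochondrial membrane, was followed through its nuclear genes, those whose symbols begin with Nduf, in endothelial cells and thymus of mice with floxed FoxO genes. Members were all genes whose symbol begins with Nduf and that have a probe set annotated to that gene alone, each read on its brightest such probe set over all 14 arrays. This gave 44 of the 18193 genes with such a probe set, and 43 of the 44 were tested among 13035 genes. Ndufb4, which encodes a membrane arm subunit, was the member left out, because its only probe set of its own had group means between 6.05 and 6.53, below the filter of 6.87 on the log2 scale. A further 8 Nduf names, among them Ndufa11 and Ndufs6, occur only on probe sets annotated to several genes and were not analysed here.

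Complex I takes electrons from NADH, passes them through a flavin and a chain of iron-sulfur clusters to ubiquinone, and pumps protons across the membrane with the energy released. The N module holds the NADH site, the Q module holds the ubiquinone site, and the membrane arm pumps protons. Its core subunits in the membrane arm are encoded by mitochondrial DNA and carry other names, so the nuclear genes described here are the core subunits of the N and Q modules, the accessory subunits, and the assembly factors that build the complex. Endothelial cells are known to draw much of their ATP from glycolysis. Ndufa4 and its paralog Ndufa4l2 carry the family's name, but the Ndufa4 protein is now assigned to cytochrome c oxidase (complex IV).

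RNA of each sample was hybridised to 1 Affymetrix mouse array. Liver sinusoidal endothelial cells (LSEC) gave 3 Cre+ and 3 control samples, and lung endothelium and thymus gave 2 Cre+ and 2 control samples each. Cre+ mice carried MxCre, a Cre recombinase driven by an interferon-inducible promoter that is not restricted to endothelium, while control mice had no MxCre. Mice of all groups, controls included, were homozygous for floxed Fk1, Fk2 and Afx, older names of Foxo1, Foxo3 and Foxo4, on an FVBn background. The labels give no age, no induction of Cre, no method of cell isolation and no statement that replicates were separate animals, so p-values measure only the spread between these samples. All levels below are log2 values after quantile normalization, and a log2 fold change is Cre+ minus control, or the first-named tissue minus the other.

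Arrays of the same group correlated at 0.97 to 0.987 over all probe sets. Foxo4 averaged 4.98 in Cre+ and 7.12 in control LSEC, 6.37 and 7.47 in Cre+ and control lung endothelial cells, and 4.85 and 8.09 in Cre+ and control thymus, with adjusted p-values of 0.000136, 0.248 and 0.000181 in that order. Foxo1 was lower by the test in Cre+ LSEC and thymus and did not pass in lung (log2 fold change -0.51, adjusted p = 0.561). Foxo3 fell in Cre+ LSEC (-0.53) and its probe set rose in Cre+ thymus (0.68), and where these probe sets lie relative to the floxed exons is not known here. The endothelial marker list averaged 9.61 to 10.8 in the endothelial samples and 6.44 to 6.59 in thymus, and the thymocyte list averaged 11.5 to 11.7 in thymus and at most 6.28 elsewhere. Lung samples also held lung epithelial markers (9.83 to 10.1 in Cre+, 9.92 to 9.95 in control) and fibroblast and mural markers (10.8 to 11 in Cre+, 11 to 11.2 in control).

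In LSEC most complex I genes had small log2 fold changes above 0, and none passed the test. With limma, 0 of 43 members passed at an adjusted p of 0.05 (6.06% of all genes tested passed), and 11 members had an unadjusted p under 0.05, all of them higher in Cre+ (10.6% of all genes tested were higher at that level). The log2 fold change was above 0 for 38 of 43 members, or 88.4%, against 51.2% of all genes tested. The median over members was 0.15, against 0.0064 over all genes tested. All 3 Cre+ samples lay above all 3 controls for 17 members and below them for 0 members, which is 39.5% of members higher against 12.5% of all genes tested (11.2% lower). In bulk RNA, a change in the number of cells of a type and a change in RNA per cell cannot be told apart.

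**Figure D1:**
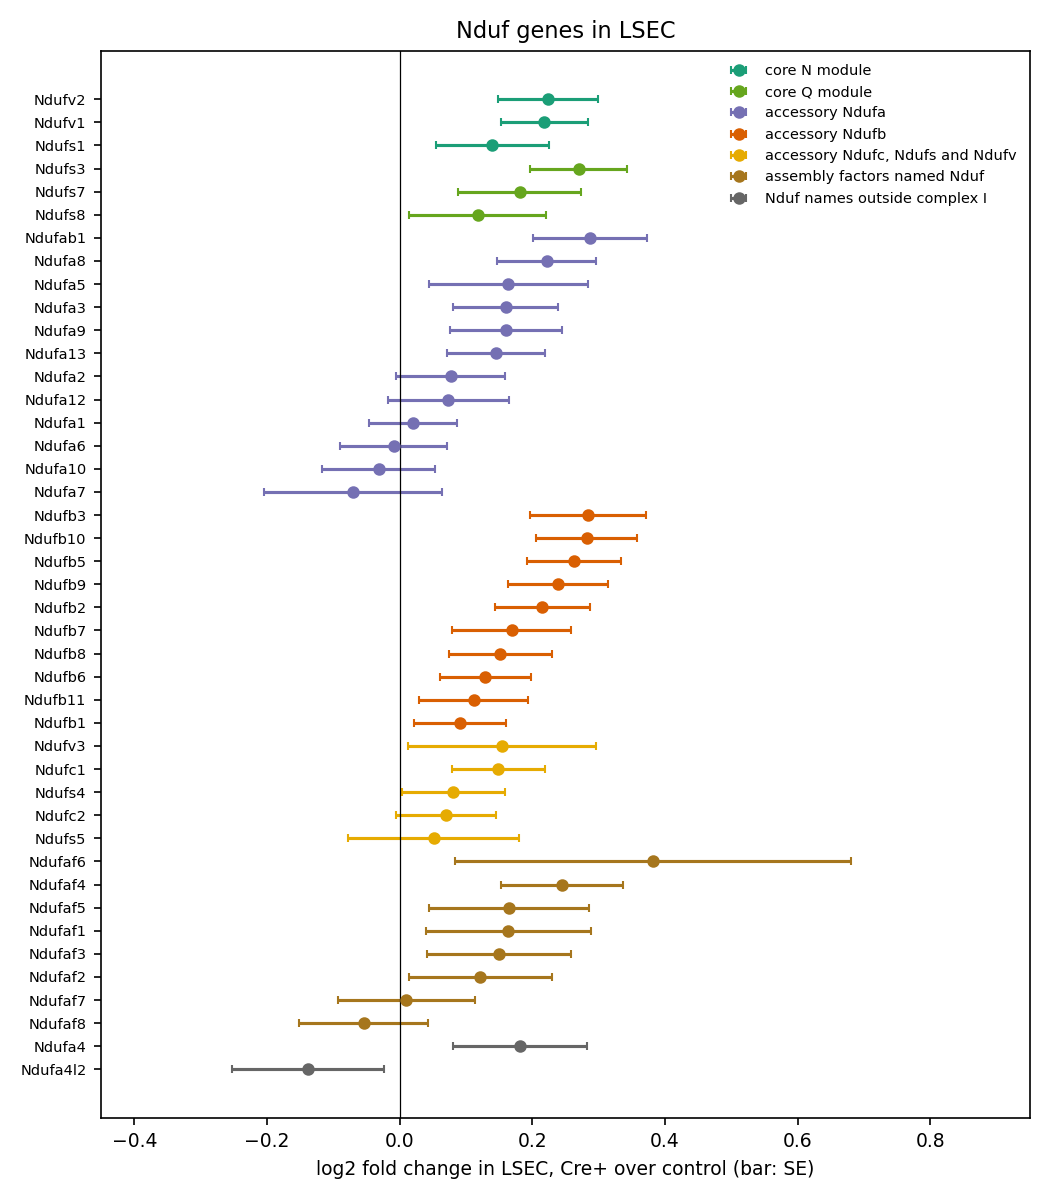
Log2 fold change of each of the 43 Nduf genes in LSEC, Cre+ over control (n = 3 each); bars are standard errors from limma and colours give the role. Most points lie between 0 and 0.29, 5 lie below 0, and Ndufaf6 at 0.38 has the widest bar.

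Among the core subunits, all 3 tested genes of the N module and all 3 of the Q module had values above 0 in LSEC, with medians of 0.22 and 0.18. Ndufs3, a core subunit of the Q module, had levels of 10.07, 10.17 and 9.99 in Cre+ LSEC, against 9.89, 9.78 and 9.75 in control LSEC. The groups did not overlap for Ndufs3, and the log2 fold change was 0.27 (SE 0.073, adjusted p = 0.0535). Ndufv1, which binds the flavin and NADH, differed by 0.22 (adjusted p = 0.0801), and Ndufv2, its partner with an iron-sulfur cluster, also differed by 0.22 (SE 0.075). Ndufs1, the N module subunit with several clusters, had a log2 fold change of 0.14 (SE 0.085).

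The Ndufb genes encode accessory subunits of the membrane arm, and all 10 tested were above 0 in LSEC, with a median of 0.19 and a range of 0.092 to 0.28. Ndufb5 had the smallest p of the family in LSEC, with levels of 10.58, 10.63 and 10.55 in Cre+ samples, against 10.33, 10.41 and 10.23 in controls. Every Cre+ sample lay above every control, by a log2 fold change of 0.26 (SE 0.070, adjusted p = 0.0512). Ndufb10 had levels of 10.09, 10.06 and 10.03 in Cre+ LSEC, against 9.90, 9.71 and 9.72 in control LSEC, again without overlap (0.28, SE 0.077, adjusted p = 0.0551). Ndufb3, Ndufb9 and Ndufb2 followed, with log2 fold changes of 0.28, 0.24 and 0.22. These 3 values stood at unadjusted p-values of 0.00779, 0.00859 and 0.0117.

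The Ndufa genes varied more: 9 of 12 were above 0 in LSEC, with a median of 0.11. Ndufab1, the mitochondrial acyl carrier protein, had the largest value of this group at 0.29 (SE 0.085, adjusted p = 0.0779). Ndufa8 stood at 0.22 (SE 0.074). Ndufa7 (-0.071), Ndufa10 (-0.032) and Ndufa6 (-0.0091) had values below 0, each smaller than its SE. The 5 tested members named Ndufc, Ndufs or Ndufv that are accessory subunits had a median of 0.081.

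Of the 8 assembly factors named Nduf, 7 were above 0 in LSEC, with a median of 0.16. Ndufaf4, which helps to assemble the Q module, had levels of 9.27, 9.49 and 9.54 in Cre+ LSEC, against 9.32, 9.09 and 9.17 in control LSEC. Its groups overlapped in 1 pair of samples, with a log2 fold change of 0.25 (SE 0.093, unadjusted p = 0.0224). The highest value in the family belonged to Ndufaf6 (0.38), but its SE was 0.30. Outside complex I, Ndufa4 stood at 0.18 (SE 0.10) and Ndufa4l2 at -0.14 (SE 0.12), the lowest of the family.

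The LSEC marker list, which includes the scavenger receptors Stab1 and Stab2, averaged 8.61 to 9.37 per sample in Cre+ LSEC and 10.4 to 11 in control LSEC, and 6 of its 8 genes fell. Hepatocyte markers averaged 7.37 to 7.55 in Cre+ LSEC and 7.42 to 7.5 in control LSEC, with 1 of 4 tested genes higher by the test. Macrophage markers averaged 9.34 to 10.2 in Cre+ LSEC and 9.64 to 10.6 in control LSEC, with 1 of 6 tested genes lower. The endothelial list averaged 10.2 to 10.4 in Cre+ LSEC and 10.5 to 10.8 in control LSEC, with 2 of 10 genes lower by the test. Fibroblast and mural markers averaged 6.35 to 7.12 in Cre+ LSEC and 6.78 to 7.6 in control LSEC, with 2 of 8 lower. The part of such shifts in the values of the Nduf genes was not tested. By sample, the median deviation of the 42 members other than Ndufs5 from each gene's mean over all arrays was 0.075, 0.17 and 0.10 in Cre+ LSEC, against 0.036, -0.018 and -0.13 in control LSEC. The controls thus spread over a wider range than the gap between the groups. The same medians over all genes tested ran from 0.023 to 0.052 in Cre+ LSEC and from 0.026 to 0.040 in control LSEC.

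**Figure D2:**
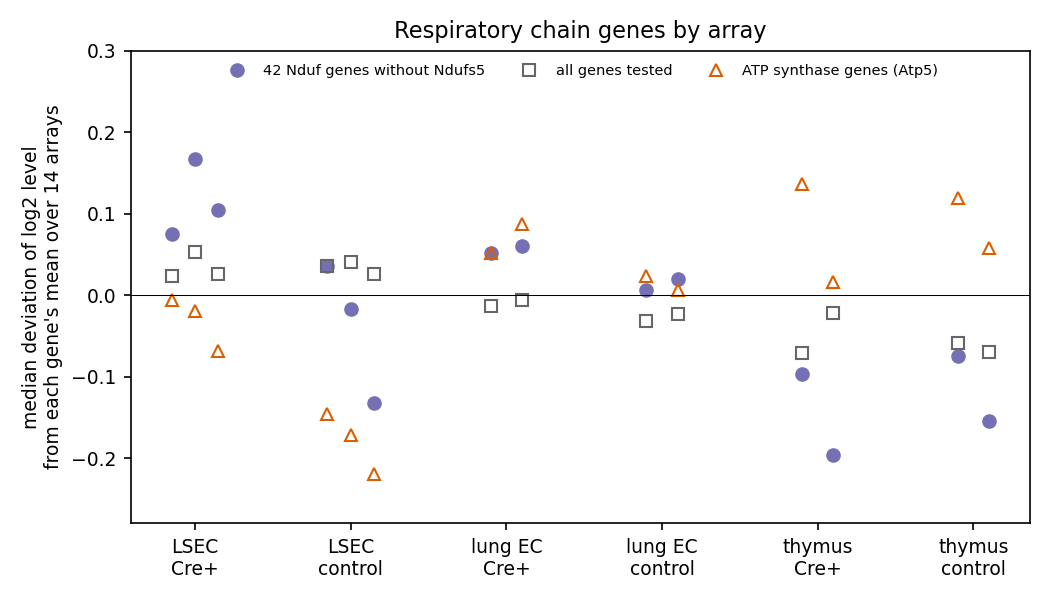
Median over genes of the log2 deviation from each gene's mean over 14 arrays, 1 point per array, for the 42 Nduf genes without Ndufs5, all genes tested and the Atp5 genes. In LSEC the Nduf medians are 0.075 to 0.17 in Cre+ samples and -0.13 to 0.036 in controls. On the thymus arrays of both genotypes the Nduf medians lie below 0 and the Atp5 medians above 0.

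Genes around the family in the same pathway were also mostly above 0 in Cre+ LSEC, with few passing (6.06% of all genes tested passed). The 10 tested complex I assembly factors with other names were all above 0, with a median of 0.16, and 0 passed; Nubpl, which delivers iron-sulfur clusters to complex I, had the smallest p (0.35, SE 0.12, adjusted p = 0.13). All 17 tested Atp5 genes of complex V (ATP synthase) were above 0, with a median of 0.14, and 1 passed. That gene was Atp5g1, a membrane ring subunit, with levels of 9.83, 9.84 and 9.82 in Cre+ LSEC, against 9.47, 9.52 and 9.40 in control LSEC (0.37, SE 0.089, adjusted p = 0.0334). In complex IV, 1 of 14 passed, Cox7a2 at 0.36 (SE 0.075, adjusted p = 0.017), and 9 of 14 were above 0. For complexes II and III the medians were 0.085 over 4 genes and 0.14 over 9 genes, and 0 genes passed. At an unadjusted p under 0.05, 0 and 1 were higher (10.6% of all genes tested). Among 13 regulators of mitochondrial biogenesis, Gabpa, the DNA-binding ETS subunit of the GA-binding protein (also called nuclear respiratory factor 2), was the 1 that rose. Gabpa had levels of 9.03, 9.03 and 8.96 in Cre+ LSEC, against 8.68, 8.72 and 8.63 in control LSEC (0.33, SE 0.073, adjusted p = 0.0231). In lung and thymus 0 genes of these lists passed (0.107% and 0.414% of all genes tested).

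In lung endothelial cells 1 of 43 members passed (0.107% of all genes tested passed), and that gene was Ndufs5. Its protein is an accessory subunit on the intermembrane space side of the membrane arm. Ndufs5 had levels of 8.72 and 8.69 in Cre+ lung endothelial cells, against 9.78 and 9.76 in control lung endothelial cells. The groups were apart by far more than the gap within either, and the log2 fold change was -1.06 (SE 0.16, 2.09-fold lower in Cre+, adjusted p = 0.0391, 95% interval -1.41 to -0.71). Only 29 of the 13035 genes tested had a lower log2 fold change in lung. The fall of Ndufs5 in lung was known when this gene was picked to stand beside the family. Its lung values, and tests that use the same lung arrays, are therefore a description. The call was lost with no filter on low levels (adjusted p = 0.133), with the lung arrays fitted alone (0.062), and on leaving out any 1 lung or thymus array (0.0522 to 0.353) or replicate 1 of Cre+ LSEC (0.0587), while the log2 fold change stayed between -1.07 and -1.05. The endothelial marker list averaged 9.61 to 9.69 in Cre+ lung samples and 9.78 to 10.1 in control lung samples, with 0 of 10 genes passing; its part in the value of Ndufs5 was not tested.

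The other 42 members had log2 fold changes between -0.23 (Ndufaf5) and 0.33 (Ndufv3) in lung, with a median of 0.059, against 0.015 over all genes tested. At an unadjusted p under 0.05 there were 0 of these 42 (4.56% of all genes tested). For 21 of 43 members the lung groups did not overlap, or 48.8% against 38.4% of all genes tested, and Ndufs5 was 1 of 4 that were lower (16.6% of all genes tested were lower without overlap).

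In thymus 0 of 43 members passed with limma (0.414% of all genes tested passed), and Ndufs5 was the 1 member with an unadjusted p under 0.05 (12.4% of all genes tested). Ndufs5 had levels of 9.46 and 9.22 in Cre+ thymus, against 9.92 and 10 in control thymus. Both Cre+ samples lay below both controls, and the log2 fold change was -0.62 (SE 0.16, 1.53-fold lower in Cre+, adjusted p = 0.124, 95% interval -0.97 to -0.27). Ndufaf2, which stands in for the late subunit Ndufa12 during assembly, had levels of 7.65 and 7.39 in Cre+ thymus, against 7.83 and 7.75 in control thymus (-0.28, adjusted p = 0.426). Ndufaf6 had the lowest log2 fold change, -0.67, which rested on 1 array: its levels were 6.29 and 4.81 in Cre+ thymus, against 6.04 and 6.40 in control thymus. All 4 of these levels lie below the filter of 6.87, which Ndufaf6 passed through its LSEC mean (7.36 in Cre+). Without replicate 1 of Cre+ thymus, which leaves 1 Cre+ thymus array, Ndufaf6 passed at -1.41. The family's median in thymus was -0.0097, against 0.025 over all genes tested. Fibroblast and mural markers averaged 8.65 to 8.7 in Cre+ thymus and 8.08 to 8.18 in control thymus, with 1 of 8 genes higher by the test, and their part in these values was not tested.

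In LSEC Ndufs5 did not pass. Its levels were 9.60, 9.50 and 9.91 in Cre+ LSEC, against 9.37, 9.72 and 9.76 in control LSEC. The groups overlapped, and the log2 fold change was 0.052 (SE 0.13, adjusted p = 0.865, 95% interval -0.23 to 0.34). Tested directly, the genotype effect on Ndufs5 was lower in lung than in LSEC by 1.11 on the log2 scale (value -1.11, SE 0.21, adjusted p = 0.041), and it was the 1 member of 43 that passed this test (0.614% of all genes tested passed). That call was lost with no filter and with only the arrays compared. It held in 3 of the 14 fits without a single array, those without replicate 2 of Cre+ LSEC or without replicate 1 or 2 of Cre+ thymus. Between lung and thymus the effects differed by -0.44 (adjusted p = 0.685, 95% interval -0.94 to 0.049), and between LSEC and thymus by 0.67 (adjusted p = 0.124, 95% interval 0.22 to 1.12). In these last tests 0 of 43 members passed with limma (0.0307% and 2.34% of all genes tested passed), and 1 and 7 members had an unadjusted p under 0.05 (7.9% and 16.6% of all genes tested).

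**Figure D3:**
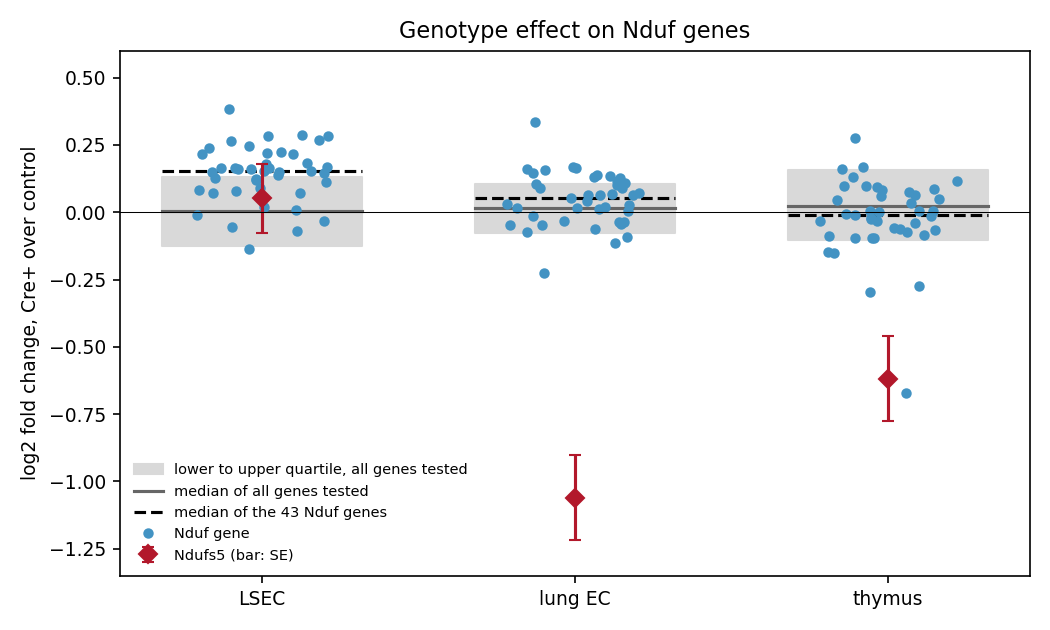
Log2 fold change, Cre+ over control, of the 43 Nduf genes in LSEC, lung endothelial cells and thymus, 1 point per gene; the grey box runs from the lower to the upper quartile of all 13035 genes tested and red diamonds are Ndufs5 with its SE. Ndufs5 lies at -1.06 in lung, apart from the other members, and at -0.62 in thymus, close to Ndufaf6.

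The value of Ndufs5 differed between its probe sets. The results above come from the probe set annotated to Ndufs5 alone. The second probe set is annotated to Ndufs5 and to Ndufs5-ps together, a transcribed pseudogene on chromosome 16. It read 9.55 and 9.77 in Cre+ lung endothelial cells, against 9.87 and 9.84 in control lung endothelial cells, a log2 fold change of -0.19 (adjusted p = 1). In thymus it read 10.05 and 9.61 in Cre+ samples, against 10 and 10.01 in control samples, so the groups overlapped there. The RefSeq record that the array annotation gives for both probe sets belongs to the pseudogene in the gene table used, while the gene identifier is that of Ndufs5. Which of these transcripts each probe set reads was not tested, so the result in lung belongs to this probe set and cannot be assigned to the Ndufs5 gene with certainty.

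**Figure D4:**
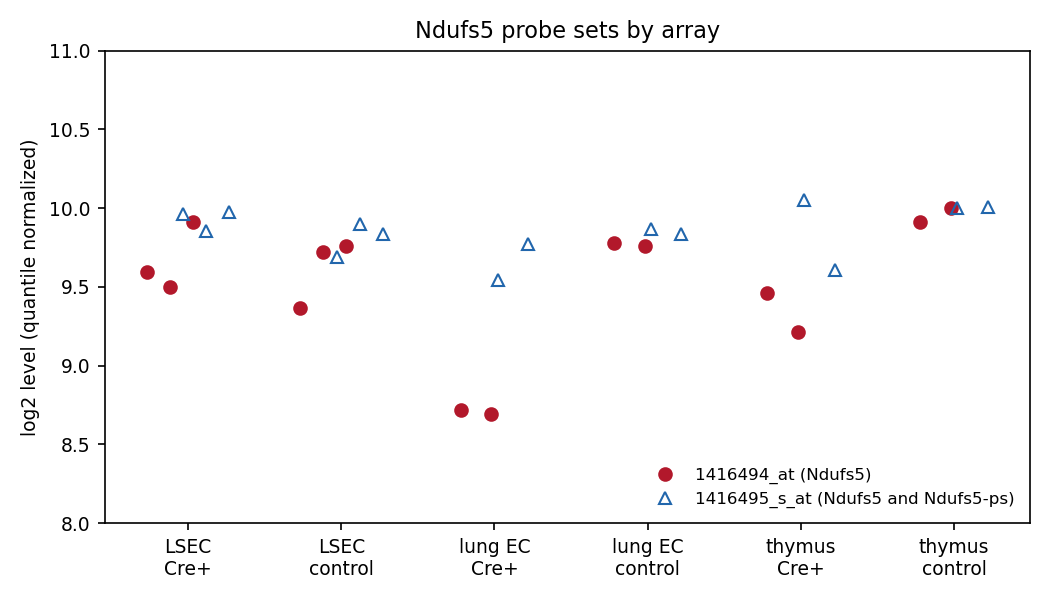
Log2 level of both Ndufs5 probe sets on each of the 14 arrays, Cre+ left of control within each tissue. The probe set of Ndufs5 alone (circles) is near 8.7 on the Cre+ lung arrays and between 9.22 and 10 on the others, while the shared probe set (triangles) stays between 9.55 and 10.05 on all arrays.

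Ndufs5 lies on chromosome 4. The 5 tested genes on each side of it in the gene table had lung log2 fold changes between -0.35 (Heyl) and 0.048 (Macf1), and their adjusted p was 1 for every gene. The 10 tested genes around Ndufs5-ps on chromosome 16 lay between -0.40 and 0.41 in lung, also with an adjusted p of 1 for every gene. Thus neither set of neighbours held a called difference. The neighbours were picked by number and not by distance, and Cap1 falls outside the chromosome 4 set. Cap1 starts at 122859048, nearer to Ndufs5 (start 123712710) than Pou3f1 (start 124657646), a member of that set. Cap1 passed in lung with a log2 fold change of 3.37 (adjusted p = 0.0234 with limma).

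Promoters were searched because many respiratory chain genes are known to carry sites for nuclear respiratory factors. RefSeq promoter windows (GRCm38.p6) of 300 bases, mostly upstream of each transcription start, matched 39 members with 41 windows. The motif of nuclear respiratory factor 1 (NRF1), searched on both strands in its 10-base consensus, occurred in 8 of 41 windows (19.5%), against 4.6% of 32851 windows of all genes. Among the 8 were both windows of Ndufa5, which overlap. CCGGAAG or its reverse complement, the ETS motif bound by Gabpa and its relatives, occurred in 6 of 41 (14.6%, against 8.86%), and GTAAACA or its reverse complement, the forkhead motif bound by FoxO and other forkhead factors, in 1 of 41 (2.44%, that of Ndufaf1, against 3.65%). Shown are the window of Ndufs5 (chr4:123718137-123718436, minus strand), that of Ndufaf4 (chr4:24897833-24898132, plus strand), the member with the largest tissue difference among those with an NRF1 match, and that of Ndufs3 (chr2:90904672-90904971, minus strand), which holds both orientations of the ETS letters. Capitals mark the motif matches.
Ndufs5: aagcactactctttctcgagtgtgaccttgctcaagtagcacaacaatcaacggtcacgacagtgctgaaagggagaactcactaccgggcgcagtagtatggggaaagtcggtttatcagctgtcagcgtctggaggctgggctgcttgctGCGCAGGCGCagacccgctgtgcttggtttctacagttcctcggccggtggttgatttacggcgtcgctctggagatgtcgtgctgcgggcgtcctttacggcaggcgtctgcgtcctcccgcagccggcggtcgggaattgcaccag
Ndufaf4: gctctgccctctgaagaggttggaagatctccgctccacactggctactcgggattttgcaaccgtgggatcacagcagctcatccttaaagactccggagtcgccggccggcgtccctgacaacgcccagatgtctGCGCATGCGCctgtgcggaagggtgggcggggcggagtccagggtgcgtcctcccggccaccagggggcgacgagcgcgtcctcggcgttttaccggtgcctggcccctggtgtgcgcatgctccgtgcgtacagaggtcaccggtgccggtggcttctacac
Ndufs3: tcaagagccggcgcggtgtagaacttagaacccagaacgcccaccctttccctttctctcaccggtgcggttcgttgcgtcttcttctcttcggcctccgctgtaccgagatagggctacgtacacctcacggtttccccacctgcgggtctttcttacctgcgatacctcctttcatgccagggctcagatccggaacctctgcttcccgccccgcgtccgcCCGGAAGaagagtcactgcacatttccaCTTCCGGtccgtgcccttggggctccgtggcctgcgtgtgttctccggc
The NRF1 match of Ndufs5 begins at position -98 and that of Ndufaf4 at position -113 relative to the start, and the first ETS match of Ndufs3 at position -27. The Ndufs5 window held neither the ETS nor the forkhead letters. A match of letters is a description of the sequence and does not show binding.

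Across tissues, after quantile normalization, the family did not move as a block: individual members were higher in 1 tissue and others in another. Between thymus and LSEC, 26 of 43 members passed in Cre+ samples, 5 higher and 21 lower in thymus (65.5% of all genes tested passed, 28.8% higher and 36.7% lower). In control samples 26 passed, 10 higher and 16 lower (64.9% of all genes tested, 27.9% higher and 37.1% lower). Between thymus and lung, 17 passed in Cre+ samples, 3 higher and 14 lower in thymus (60% of all genes tested, 27.2% higher and 32.8% lower), and 17 in control samples, 6 higher and 11 lower (60.5%, 27.8% higher and 32.7% lower). Between LSEC and lung, 21 passed in Cre+ samples, 13 higher and 8 lower in LSEC (44.1% of all genes tested, 24.8% higher and 19.3% lower), and 15 in control samples, 5 higher and 10 lower (46.1%, 25.9% higher and 20.2% lower). These shares were 60.5%, 60.5%, 39.5%, 39.5%, 48.8% and 34.9% of members in the same order, and only for LSEC against lung in Cre+ samples was the share of members the higher one. Ndufs5 was 1 of the 3 members higher in thymus and 1 of the 13 higher in LSEC in the Cre+ comparisons with lung.

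The sizes of these counts and their split moved with the scaling. With median centring most members that passed between thymus and LSEC or lung were lower in thymus. For LSEC against lung in controls the split became even with median centring. With median centring, which moved the median of all genes tested from -0.10 to -0.19 for thymus against LSEC in controls, the higher and lower members there numbered 2 and 19, and with the values as deposited 5 and 12. For thymus against lung in controls they numbered 0 and 18 with median centring and 3 and 7 as deposited, and for LSEC against lung in controls 5 and 5, and 4 and 8. In Cre+ samples they numbered 2 and 24, and 3 and 20, for thymus against LSEC; 3 and 18, and 4 and 9, for thymus against lung; and 16 and 4, and 12 and 4, for LSEC against lung. The shares of all genes tested that passed with median centring and as deposited are not given here. These counts therefore do not show whether the members differed from all genes. The members named below kept their direction under all 3 scalings except where a sentence says otherwise. Some of their calls were lost. With median centring, Ndufa1 and Ndufb1 lost theirs for thymus against LSEC in both genotypes. With it, Ndufa1 (adjusted p = 0.215) and Ndufaf3 (0.14) also lost theirs for thymus against lung in controls. As deposited, Ndufaf2 lost its control calls for thymus against LSEC (0.0509) and lung (0.0585). Ndufaf5 lost its Cre+ call for thymus against lung (0.063). Ndufa1 in controls (0.147) and Ndufb1 in Cre+ samples (0.072) lost theirs for thymus against LSEC.

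Between thymus and LSEC, 21 members passed the same way in both genotypes, 5 higher and 16 lower in thymus (55.1% of all genes tested, 23.6% higher and 31.4% lower). Between thymus and lung there were 13, 2 higher and 11 lower in thymus (52.4%, 23.6% higher and 28.8% lower), and between LSEC and lung 13, 5 higher and 8 lower in LSEC (34.3%, 18.8% higher and 15.5% lower). Ndufa4l2, a paralog of Ndufa4 known as a gene induced by hypoxia, had the largest differences among members that passed the same way in both genotypes. Its levels were 7.51 and 7.63 in Cre+ and 7.39 and 7.56 in control thymus, 7.69, 7.27 and 7.42 in Cre+ and 7.42, 7.73 and 7.64 in control LSEC, and 9.11 and 9.06 in Cre+ and 9.14 and 9.10 in control lung endothelial cells. Every lung array lay above every thymus and LSEC array, and the arrays of thymus and LSEC overlapped. Thymus was lower than lung by 2.85-fold in Cre+ and 3.12-fold in control samples, and LSEC was lower than lung by 3.09-fold in Cre+ and 2.88-fold in control samples, with adjusted p-values of 4.47e-06 or less. Fibroblast and mural markers were also high in the lung samples, and their part in the level of Ndufa4l2 was not tested.

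Its paralog Ndufa4 had another order, lowest in LSEC. Ndufa4 had levels of 11.32 and 11.35 in Cre+ and 11.28 and 11.26 in control thymus, 10.78, 10.39 and 10.50 in Cre+ and 10.28, 10.45 and 10.4 in control LSEC, and 11.18 and 11.01 in Cre+ and 10.88 and 10.98 in control lung. Thymus exceeded LSEC by 1.71-fold in Cre+ and 1.86-fold in control samples, and LSEC was lower than lung by 1.45-fold in Cre+ and 1.47-fold in control samples. Ndufa6, an accessory subunit that binds the acyl carrier protein Ndufab1, followed Ndufa4: it was higher in thymus than in LSEC (0.62 in Cre+, 0.64 in control) and lower in LSEC than in lung (-0.50 in Cre+, -0.61 in control). All 6 LSEC arrays of Ndufa6 read 9.88 to 10.02, below the 10.35 to 10.64 of the thymus and lung arrays.

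Ndufaf4 was highest in LSEC. Beside the LSEC levels given above, it read 8.37 and 8.38 in Cre+ and 8.33 and 8.42 in control thymus, and 8.32 and 8.43 in Cre+ and 8.37 and 8.27 in control lung. All 6 LSEC arrays lay above the other 8, and thymus was lower than LSEC by 2.08-fold in Cre+ and 1.76-fold in control samples. LSEC exceeded lung by 2.09-fold in Cre+ and 1.83-fold in control samples, and the second probe set of Ndufaf4 had differences of the same sign in each of these 4 comparisons. Ndufa8, an accessory subunit with twin cysteine motifs, had the same order, with thymus below LSEC by 0.73 in Cre+ and 0.60 in control samples (values -0.73 and -0.60) and LSEC above lung by 0.53 in Cre+ and 0.43 in control samples. Ndufb7 and Ndufb8 of the membrane arm were higher in LSEC than in lung (0.62 in both genotypes for Ndufb7; 0.45 in Cre+ and 0.32 in control for Ndufb8). The other probe set of Ndufb7 gave only 0.092 in Cre+ and 0.027 in control samples, and the mean over its probe sets turned Ndufb8 to -0.015 in control samples and left 0.033 in Cre+ samples (adjusted p = 0.816).

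**Figure D5:**
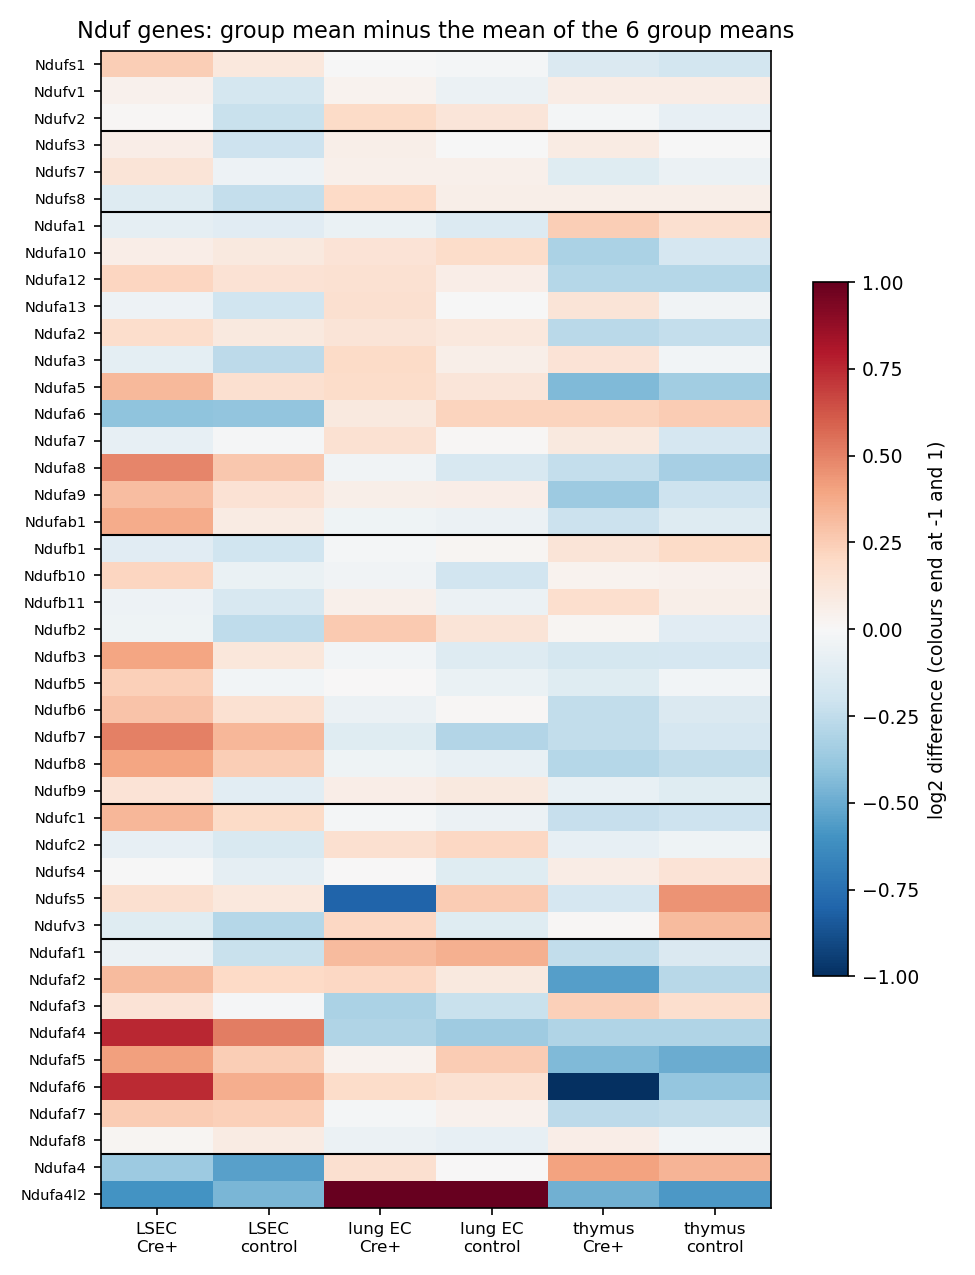
Group mean minus the mean of the 6 group means, log2 scale, for the 43 Nduf genes (rows, in blocks by role) in 6 groups (columns, Cre+ left of control). Colours end at -1 and 1; Ndufa4l2 stands out in lung, Ndufaf4 in LSEC and Ndufs5 in Cre+ lung.

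Of the 8 assembly factors, 4 were lower in thymus than in LSEC in both genotypes (31.4% of all genes tested) and 0 were higher (23.6%). Ndufaf5, which hydroxylates the Q module subunit Ndufs7, was lower in thymus than in LSEC (-0.85 in Cre+, -0.74 in control) and than in lung (-0.48 in Cre+, -0.75 in control). Its thymus means of 6.54 in Cre+ and 6.49 in control lie below the filter of 6.87, as do those of Ndufaf6. Ndufaf2 was likewise lower in thymus than in LSEC (-0.87 in Cre+, -0.47 in control) and than in lung (-0.76 in Cre+, -0.38 in control). Ndufaf3, a partner of Ndufaf4 in assembly, was higher in thymus than in lung (0.55 in Cre+, 0.39 in control), and Ndufaf1, which acts on the membrane arm, was lower in LSEC than in lung (-0.38 in Cre+, -0.58 in control). The call of Ndufaf1 in Cre+ samples held in 5 of the 14 fits without a single array and was lost with no filter (adjusted p = 0.0736).

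Accessory Ndufa genes went both ways between thymus and LSEC, with 3 of 12 higher and 6 of 12 lower in thymus in both genotypes (23.6% and 31.4% of all genes tested). Ndufa5 was lower in thymus than in lung (-0.62 in Cre+, -0.46 in control). Ndufa1, a small membrane subunit, was higher in thymus than in lung (0.32 in Cre+, 0.30 in control) and than in LSEC (0.34 in Cre+, 0.27 in control), but with median centring the difference in control samples against LSEC turned to -0.045 and that in Cre+ samples came to 0.019 (adjusted p = 0.872). Ndufb1 was higher in thymus than in LSEC (0.25 in Cre+, 0.40 in control), and 0.0062 in Cre+ samples with median centring. Of the core subunits, 1 of 3 of the N module (Ndufs1) was lower in thymus than in LSEC in both genotypes (31.4% of all genes tested). In the Q module 1 of 3 (Ndufs8) was lower in LSEC than in lung in both genotypes (15.5% of all genes tested), though not on every probe set.

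Other probe sets of a called member had the opposite sign in 1 of 13 cases for thymus against LSEC in Cre+ and 6 of 19 in control samples, in 2 of 9 for thymus against lung in Cre+ and 2 of 11 in control samples, and in 6 of 16 for LSEC against lung in Cre+ and 5 of 15 in control samples. The members concerned were Ndufa10, Ndufab1, Ndufb2, Ndufb7, Ndufc2, Ndufs4, Ndufs8 and Ndufv2. Ndufb2 was the widest of these. Its brightest probe set gave -0.24 for thymus against lung in both genotypes, while another gave 1.47 in Cre+ and 1.45 in control samples. That other probe set reached the filter only in thymus, with means of 7.48 in Cre+ and 7.24 in control samples. Its lung means of 6.01 in Cre+ and 5.79 in control samples lay below the filter. The remaining probe set of Ndufb2 alone had the sign of the brightest (-0.36 in Cre+, -0.25 in control). Which transcripts these probe sets read was not tested.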

How the data were processed

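Total RNA of 14 mouse samples was measured on Affymetrix arrays. The table the authors deposited gives log2 values of 45101 probe sets on every array, between 0 and 13.8, with 223 to 312 values per array at exactly 0. The log base was inferred from the range, and how the authors summarized and normalized the scans is not given in the sources used here. Array medians (6.75 to 7.04) spread over 0.282, more than the limit of 0.2, so all arrays were quantile normalized. The platform annotation gave 1 gene symbol to 34945 probe sets and several to 932, with 64 array controls set aside. A RefSeq gene table (GRCm38.p6) supplied gene identifiers for 34741 of them and the order of genes along a chromosome. A gene was read on its brightest probe set with 1 symbol and tested where its level in the highest tissue was at least 6.87 (40th percentile of that quantity).

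Means of the 6 groups were fitted jointly over 14 arrays (limma 3.58.1 in R 4.3.3, lmFit and eBayes, 8 residual and 3.21 prior degrees of freedom). Each contrast had its own Benjamini-Hochberg adjustment over 13035 genes, at 0.05, and all adjusted p-values in the text are limma's. The number of arrays limits the precision. The test was checked on simulated data of the same design.

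The members and the gene lists were chosen with earlier results of these data known. Values by array were given for Ndufs5 on its probe sets, for members passing in a genotype contrast or the 2 with the smallest p, for Ndufa4 and Ndufa4l2, and for further members chosen after their values were seen (Ndufb10, Ndufaf4 and Ndufaf6). Tissue differences were named for members among the 4 largest in each direction that passed in both genotypes. From each other list up to 3 passing genes, or the 2 with the smallest p, were eligible, and the 5 tested genes on each side of Ndufs5. Alternatives were median centring, the deposited values, no filter or one at the 60th percentile (7.92), the mean of probe sets, trend and robust eBayes, array weights, only the arrays compared, leaving out each array, and a replicate block. A lung block with crossed numbers and the shared Ndufs5 probe set were added after seeing the data.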

Additional observations from a re-analysis of the deposited data

Results flagged for a closer look

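The genotype effect on Ndufs5 differed between lung endothelial cells and LSEC in the direct test of the difference, at -1.11 on the log2 scale (SE 0.21, adjusted p = 0.041 with limma). It no longer passed with no filter or with only the arrays compared, and it passed in 3 of the 14 fits without a single array. Both Cre+ lung samples lay below both lung controls, and the Cre+ and control LSEC samples overlapped. The probe set shared with Ndufs5-ps gave a lung value of -0.19. The fall of Ndufs5 in lung was known when this gene was picked, and the direct test uses the same lung arrays.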

How the results depend on the processing

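In LSEC, 0 members passed as reported, against 3 with the 60th percentile filter (Ndufb5, Ndufs3 and Ndufb10), 1 with the mean of probe sets (Ndufs3), 7 with trend and robust on (these 3 with Ndufab1, Ndufb3, Ndufb9 and Ndufv1) and 0 to 1 without single arrays. Over all genes these settings called 784 of 9702, 718 of 11418 and 939 of 13035. In lung, 1 member passed, against 0 with no filter, with only the arrays compared, with the replicate block, with the lung numbers crossed and with the shared probe set, and 0 to 1 without single arrays. The log2 fold change of Ndufs5 in lung was -1.06 in the first 3 of these (adjusted p = 0.133, 0.062 and 0.231), -0.19 on the shared probe set, and -1.07 to -1.05 without single arrays. Its LSEC value was -0.074 to 0.14 without single arrays, below 0 without replicate 3 of Cre+ (-0.071) or replicate 1 of control LSEC (-0.074), and its thymus value -0.74 to -0.50. For the effect of lung minus that of LSEC, 1 member passed, against 0 with no filter, only the arrays compared and both blocks, and 0 to 1 without single arrays.

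Same-numbered samples did not deviate together (correlations of -0.31, -0.092 and -0.26 in LSEC, -0.24 in lung and 0.052 in thymus). Samples of different numbers correlated at -0.094 to 0.33 in LSEC, 0.24 in lung and -0.052 in thymus. The labels state no pairing, and these correlations cannot show how the samples were processed. The replicate block is therefore given only as an alternative.

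Between tissues, the members that passed numbered 17 rather than 26 for thymus against LSEC in controls and 10 rather than 17 for thymus against lung in controls with the values as deposited, and 9 rather than 17 for thymus against lung in Cre+ with only the arrays compared. Without single arrays they numbered 24 to 28 in Cre+ and 16 to 27 in control samples for thymus against LSEC, 10 to 17 and 4 to 18 for thymus against lung, 12 to 24 and 10 to 16 for LSEC against lung, and 0 to 1 for the genotype effect in thymus and for LSEC minus thymus. Ndufa1 turned to -0.045 for thymus against LSEC in controls with median centring. Ndufb8 turned to -0.015 for LSEC against lung in controls with the mean of probe sets, which takes in a probe set that did not reach the filter. Of 1036 values of named members other than Ndufs5 under alternatives, 990 kept their direction and call, 39 lost the call, 5 gained it and 2 reversed. The shares of all genes tested that passed between tissues under these settings are not given here. The cause of these changes was not tested.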

Other observations

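Of the 14 genes that passed in lung endothelial cells, 4 lay on chromosome 4 (28.6%), the chromosome of Ndufs5, against 6.05% of all genes tested. They were Cap1 (log2 fold change 3.37), Cyp4b1 (-1.46), Plpp3 (-0.80) and Ndufs5 (-1.06). In LSEC 5.82% and in thymus 5.56% of the genes that passed lay on chromosome 4. This split by chromosome was made after the values were seen, and no test was run on it.

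The probe sets annotated to Ndufb4, Ndufb4b and Ndufb4c together were well above the filter where the probe set of Ndufb4 alone was not. The brighter of them averaged 10.87 ± 0.09 in Cre+ LSEC and 10.62 ± 0.07 in control LSEC (SD, n = 3 each). In lung it averaged 10.49 in Cre+ and 10.53 in control samples, and in thymus 10.28 in Cre+ and 10.2 in control samples.

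Across the 3 genotype comparisons, which share no arrays, 14 of 43 members were above 0 in all and 2 below 0 in all, against 16.3% and 11.2% of all genes tested.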
